A study of Mus musculus with 12 samples.

Results

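Mitochondrial ribosomal protein genes encode the proteins of the ribosome that works inside mitochondria, and 77 of them were followed in mouse osteoclast precursor cells exposed to dexamethasone. They were the genes whose symbols begin with Mrps or Mrpl and a number, without pseudogene symbols and with at least 120 counts over the 12 libraries, among 28293 genes in the count table. The symbols name 29 small-subunit and 48 large-subunit proteins. The least abundant of them, Mrps18c, had 3351 counts in all and the most abundant, Mrpl12, 31567, so none lay near the minimum, and all 77 were among the 13775 genes tested. The 5 pseudogene symbols left out held 23 to 360 counts (Mrps36-ps2 the fewest, Mrpl23-ps1 the most). Mrpl53 was not analysed here.

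The mitochondrial ribosome, or mitoribosome, translates the few messenger RNAs made from mitochondrial DNA, which encode core subunits of the respiratory chain and of ATP synthase. Its ribosomal RNAs come from the same DNA, but its proteins are all encoded in the nucleus, made in the cytosol and imported. Some descend from bacterial ribosomal proteins and others have no bacterial counterpart, and osteoclasts, which resorb bone, are known for their many mitochondria.

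The cells were wild-type bone marrow cells of male C57BL/6J mice aged 6 months, grown with M-CSF for 3 days and then induced with RANKL, the cytokine that drives osteoclast formation. All libraries therefore came from cells given 10 ng/ml M-CSF and 25 ng/ml RANKL. The 6 RANKL libraries had RANKL for 24 h, and the 6 RANKL+Dex libraries had RANKL together with 10 nM dexamethasone, a synthetic glucocorticoid, for 24 h. The protocols do not settle whether dexamethasone came with the first day of RANKL or on the day after it, and whether the total time in RANKL was the same in both groups was not determined. Each group held batches 1 to 6, and the comparison asks what the steroid does to these cells. Library totals ran from 16820193 to 28523595 counts, and 20252 to 21776 genes were detected per library. Osteoclast markers were abundant in every library and took 4.86 to 5.27% of counts, with Mmp9, Ctsk and Acp5 the highest of them. Of these 10 markers, 4 rose (Acp5, Ctsk, Oscar and Nfatc1) and 1 fell (Itgb3). Over all tested genes 7.98% were called higher and 7.55% lower by edgeR (adjusted p under 0.05). With batch as a replicate block these shares were 10.6% and 11.1%. Of 8 macrophage markers 1 rose (Mertk) and 2 fell (Itgam and Mrc1). With batch as a replicate block 2 of them rose and 3 fell. Neutrophil markers fell in all 5 tested of 8, from a share of 0.00232 to 0.00367% of counts in RANKL to 0.000616 to 0.000989% in RANKL+Dex. Of 3 tested endothelial markers 2 fell (Kdr and Pecam1), and 3 fell with the block. The 4 tested stromal markers were split. Of them 2 rose (Dcn and Pdgfrb), and the 2 that did not pass, Col1a1 and Col1a2, had lower mean levels with dexamethasone. With the block 2 stromal markers rose and 1 fell. Erythroid markers were at or near 0, with Hbb-bs at 0 in every RANKL library. The part of such other cells in the values given here was not tested, and in these bulk samples fewer cells of a type and less RNA per cell cannot be told apart.

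To show what lies in front of these genes, 4 promoter windows are given, from 250 bases before to 50 bases after the annotated start (RefSeq, GRCm38.p6, whereas the deposited table uses GRCm39). They are those of Mrps21, of Mrpl35, and of the neighbours Mrpl46 and Mrps11. The Mrps21 window has letters of 2 factors known as activators of nuclear genes for mitochondrial proteins. In RefSeq, Mrpl46 and Mrps11 are transcribed away from each other from starts 42 bases apart and share 141 bases of their windows. In the deposited coordinates the 2 genes overlap by 413 bases instead. Capitals mark letters of the motifs searched, read 5′ to 3′ on the strand of the gene. Mrps21 lies at chr3:95871465-95871764 on the minus strand, Mrpl35 at chr6:71823735-71824034 on the minus strand, Mrpl46 at chr7:78783040-78783339 on the minus strand and Mrps11 at chr7:78782881-78783180 on the plus strand.
Mrps21: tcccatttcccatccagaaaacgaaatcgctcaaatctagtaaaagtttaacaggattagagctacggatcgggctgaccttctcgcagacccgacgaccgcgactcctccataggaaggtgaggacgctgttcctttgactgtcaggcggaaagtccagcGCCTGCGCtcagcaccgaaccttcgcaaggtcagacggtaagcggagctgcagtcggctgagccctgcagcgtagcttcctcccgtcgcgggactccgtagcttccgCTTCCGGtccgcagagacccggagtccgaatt
Mrpl35: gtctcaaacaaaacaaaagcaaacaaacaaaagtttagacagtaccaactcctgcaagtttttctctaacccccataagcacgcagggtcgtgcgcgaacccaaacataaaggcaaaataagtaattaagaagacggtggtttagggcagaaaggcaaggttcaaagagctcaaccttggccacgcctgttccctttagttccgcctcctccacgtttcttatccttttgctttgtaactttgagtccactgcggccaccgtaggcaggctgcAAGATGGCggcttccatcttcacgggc
Mrpl46: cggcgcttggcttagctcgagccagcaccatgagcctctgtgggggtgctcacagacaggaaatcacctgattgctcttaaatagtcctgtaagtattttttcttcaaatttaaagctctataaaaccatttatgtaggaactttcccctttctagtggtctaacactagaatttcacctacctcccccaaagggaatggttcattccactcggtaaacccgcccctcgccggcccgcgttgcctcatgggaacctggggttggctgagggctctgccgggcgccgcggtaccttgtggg
Mrps11: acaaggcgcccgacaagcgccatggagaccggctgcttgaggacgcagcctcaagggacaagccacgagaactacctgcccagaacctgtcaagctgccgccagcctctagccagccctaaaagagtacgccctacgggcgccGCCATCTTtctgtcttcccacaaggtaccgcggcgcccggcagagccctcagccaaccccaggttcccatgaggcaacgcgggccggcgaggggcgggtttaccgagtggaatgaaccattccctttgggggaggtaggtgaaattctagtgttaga

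In the Mrps21 window the capitals are GCCTGCGC, a reverse-strand match of the NRF1 letters GCGCANGC, 89 bases before the start, and CTTCCGG, a reverse-strand match of the ETS letters CCGGAAG, beginning 18 bases after it. NRF1 and the ETS factor GABPA are known activators of nuclear genes for mitochondrial proteins. The Mrpl35 window holds AAGATGGC, a match of the YY1 letters AANATGGC, beginning 23 bases after the start. In the Mrps11 window GCCATCTT is the same motif on the reverse strand, 107 bases before the start, and the Mrpl46 window held none of the motifs searched. Mrps21, Mrpl35 and Mrpl46 rose and Mrps11 did not pass the test, as given with their values further on.

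Windows were found for 68 of the 77 genes, and both strands were searched. Genes without one were Mrpl4, Mrpl13, Mrpl15, Mrpl19, Mrpl38, Mrpl54, Mrps28, Mrps34 and Mrps35. A gene counted if any of its windows held the letters (3 of the 68 had more than 1 window), whereas all windows were counted singly. The NRF1 letters stood in 22 of the 68 genes (32.4%), against 22.4% of tested genes with a window and 9.95% of all 32851 windows. The ETS letters stood in 25 (36.8%), against 20.6% of tested genes and 8.86% of all windows, and the YY1 letters in 21 (30.9%), against 10.2% and 6.05%. The E-box CACGTG, bound by MYC among others, stood in 5 (7.35%), against 11.8% and 7.15%. The glucocorticoid receptor half-site AGAACA stood in 7 (10.3%), against 14.8% of tested genes and 19.0% of all windows. These are counts of letters and not of bound sites, and no motif listed overlaps another in the windows shown. Median GC content was 58.5% in the windows of these genes and 60.7% in those of tested genes.

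Median fold changes were similar whatever the number of different motifs among NRF1, ETS and YY1 in a window. The 19 genes with none of the 3 had a median log2 fold change of 0.11, the 30 genes with 1 had 0.10 and the 19 genes with 2 had 0.10. In these classes 4 of 19, 2 of 30 and 2 of 19 genes rose, where 7.98% of all tested genes were called higher. The differences in these counts were not tested. No window held the letters of all 3.

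With dexamethasone the mitoribosomal protein genes lay slightly higher as a group, by a similar amount in both subunits. Of the 77 genes, 10 rose and 0 fell at an adjusted p under 0.05 by edgeR's quasi-likelihood test. That is 13.0% higher, where 7.98% of all tested genes were called higher and 7.55% lower. At an unadjusted p under 0.05, 31 were higher (40.3%) and 0 lower, where 14.5% of all tested genes were higher and 14.4% lower. DESeq2 called 12 higher and 0 lower, where it called 8.57% higher and 7.57% lower of the 15122 genes to which it gave an adjusted p. The fold change was above 0 in 70 of the 77, against 49.0% of all tested genes. The median log2 fold change was 0.10 (quartiles 0.06 and 0.15, range −0.06 to 0.30), a level 7.55% higher, while the median over all tested genes was −0.00.

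**Figure D1:**
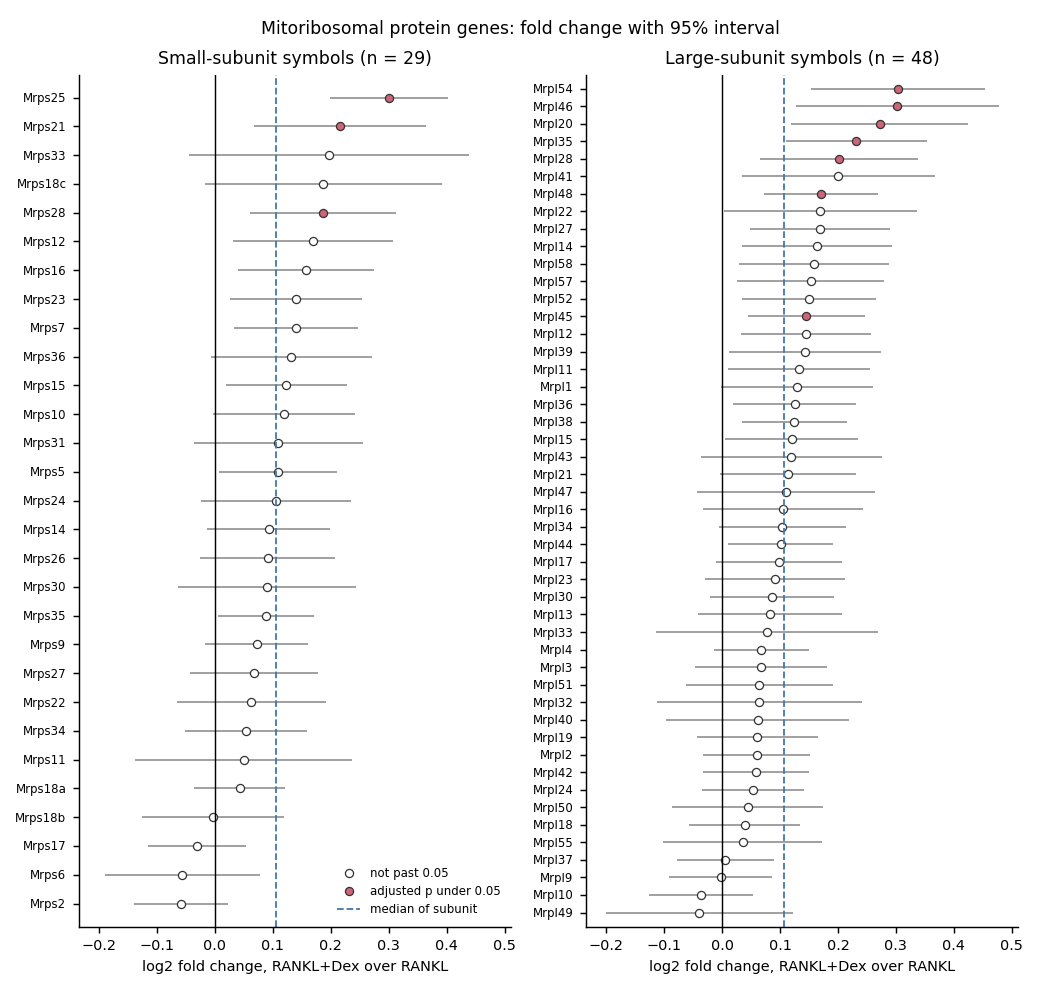
Log2 fold change (RANKL+Dex over RANKL, x axis) of each of the 29 small-subunit and 48 large-subunit genes, with its 95% confidence interval from edgeR; filled points passed an adjusted p of 0.05 and the dashed line is the median of the subunit. Most points lie to the right of 0 in both panels (25 of 29 and 45 of 48), and 3 and 7 are filled.

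The call count depended on whether the batch entered the fit and on single libraries. With batch as a replicate block, 19 genes rose and 0 fell, where 10.6% of all tested genes were called higher and 11.1% lower. All 10 genes of the fit without the block were among the 19. Leaving out RANKL+Dex replicate 1 also gave 19, and leaving out RANKL replicate 4 or RANKL+Dex replicate 2, 4 or 5 gave 6. No gene was called lower in any of these fits.

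The small subunit, which binds messenger RNA and decodes it, had 3 of 29 genes called higher (10.3%, near the 7.98% of all tested genes). Of its genes 25 of 29 lay above 0, with a median log2 fold change of 0.10. The large subunit, which joins the amino acids and holds the exit tunnel, had 7 of 48 called (14.6%) and 45 of 48 above 0, with a median of 0.11. With the block the counts were 5 and 14, where 10.6% of all tested genes were called higher. Summed over the small-subunit symbols, the level averaged 986 ± 21.1 CPM in RANKL libraries and 1054 ± 47.4 CPM with dexamethasone added (CPM, library-scaled counts by the TMM method, mean ± SD, n = 6), a difference of 6.82%. The summed large-subunit level averaged 1970.2 ± 41.7 CPM and 2122 ± 113 CPM, a difference of 7.68%. Both sums spread more in RANKL+Dex than in RANKL.

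The ratio of the large-subunit sum to the small-subunit sum was 2.00 ± 0.0246 in RANKL and 2.01 ± 0.0246 in RANKL+Dex (mean ± SD, n = 6). It ran from 1.97 over a median of 2.00 to 2.03 in RANKL and from 1.98 over 2.01 to 2.05 in RANKL+Dex, so the groups overlapped. Within batches the ratio was higher with dexamethasone in 3 of 6, by a factor of at most 1.03, and lower in 3, by a factor of at least 0.978. Protein and assembled ribosomes were not measured.

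The symbols do not place every protein where it sits. Mrps30 (mL65) and Mrps18a (mL66) carry small-subunit symbols but are proteins of the large subunit, and Mrps36 (KGD4) is now counted with the 2-oxoglutarate dehydrogenase complex rather than the ribosome. Placed by structure, 26 genes belong to the small subunit, 50 to the large subunit and 1 to neither. The counts of genes that rose stayed at 3 and 7, with median log2 fold changes of 0.11 and 0.10, and with the block they were 5 and 14. Of the 46 genes shared with bacteria 5 rose (10.9%, median 0.10), and of the 30 mitochondria-specific genes 5 rose (16.7%, median 0.11). Mrps18a (mL66) and Mrps18b (mS40) are counted here as mitochondria-specific, although they are relatives of a bacterial protein. In the large subunit by structure, 4 of 20 mitochondria-specific and 3 of 30 shared genes rose. In the small subunit, 1 of 10 and 2 of 16 rose. With the block the shared genes had 10 of 46 higher and the mitochondria-specific genes 9 of 30. By subunit these were 8 of 20 mitochondria-specific and 6 of 30 shared genes in the large, and 1 of 10 and 4 of 16 in the small. Over all tested genes 7.98% were called higher without the block and 10.6% with it. The differences between these classes were not tested.

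Batch 1 differed from the other batches. Within it 32 of the 77 genes were higher with dexamethasone (median log2 ratio −0.04). In batches 2 to 6 there were 71, 58, 54, 67 and 65 genes higher, with medians of 0.14, 0.07, 0.08, 0.15 and 0.17. Over all tested genes the share higher lay between 48.2% and 50.7% in each batch. The summed level of the 77 genes was 2910.0 CPM in RANKL+Dex replicate 1, the lowest of its group, and 3394 CPM in replicate 5, the highest. In RANKL it ran from 2858 over a median of 2964 to 3017 CPM, and 5 of 6 RANKL+Dex libraries lay above all of these. Batch 1 thus held the only RANKL+Dex library that fell among the RANKL libraries.

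**Figure D2:**
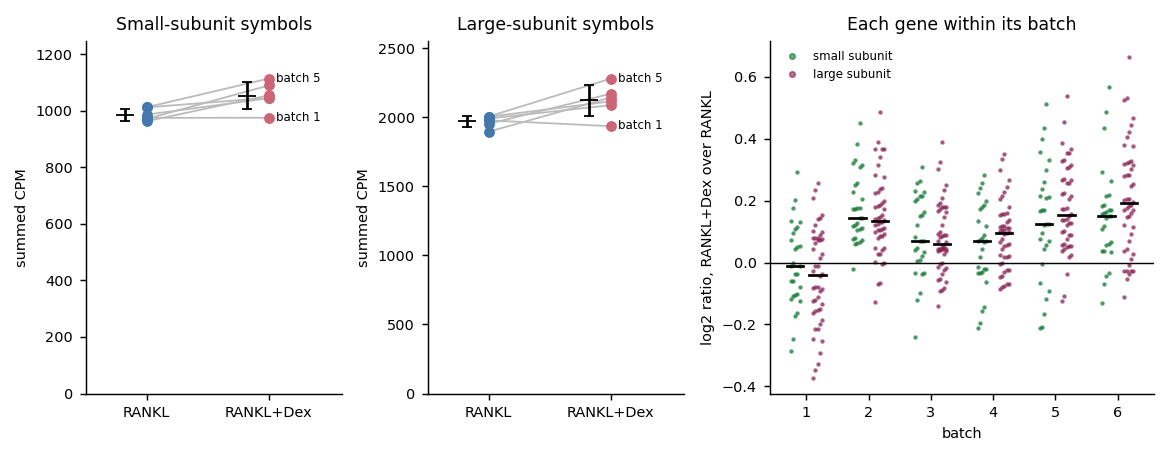
Left and middle: summed CPM of the small-subunit and large-subunit symbols in each library, grey lines joining libraries of 1 batch, bars showing mean ± SD of 6 libraries. Right: log2 ratio of each gene within its batch, black bars marking the median of each subunit. The ratio is near 0 in batch 1 and above 0 for both subunits in batches 2 to 6.

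Higher in all 6 batches were 10 genes, or 13.0%, where 10.6% of all tested genes were. All 6 RANKL+Dex libraries lay above all 6 RANKL libraries for 2 genes, Mrps25 and Mrpl35, or 2.60%, where this held for 3.84% of all tested genes. The first share lay near that of all tested genes and the second below it.

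Among small-subunit genes, Mrps25 (ENSMUSG00000014551, chromosome 6, 92146506 to 92161014, minus strand, GRCm39) encodes the mitochondria-specific protein mS25. It lay at 31.8, 35.2 and 37.1 CPM in RANKL (lowest, median and highest of 6) and at 41.7, 42.2 and 48.1 CPM in RANKL+Dex. The groups did not overlap, and RANKL+Dex replicate 5 stood above the other 5 of its group. The mean of Mrps25 rose from 35.0 ± 1.88 to 43.1 ± 2.47 CPM (SD, n = 6), or by 0.30 ± 0.05 (SE) on the log2 scale (edgeR adjusted p = 0.00045), and the gene was higher in 6 of 6 batches.

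Mrps21 encodes bS21m, the counterpart of a small bacterial protein of the small subunit. It lay at 24.2, 29.4 and 31.0 CPM in RANKL and at 28.5, 32.7 and 37.4 CPM in RANKL+Dex, and rose by 0.22 ± 0.07 on the log2 scale (edgeR adjusted p = 0.0457). The groups overlapped, with 5 of 6 batches higher. Mrps28 encodes bS1m, related to part of bacterial S1. It lay at 20.1, 20.4 and 23.5 CPM in RANKL and at 22.4, 23.8 and 26.7 CPM in RANKL+Dex, and rose by 0.19 ± 0.06 (edgeR adjusted p = 0.0425) with overlapping groups and 5 of 6 batches higher.

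Both calls lay near the threshold. Over the 21 alternative settings, Mrps21 was called in 8 and Mrps28 in 10, with adjusted p up to 0.104 and 0.0915, and Mrps25 was called in all 21. With length and GC content trends removed, Mrps21 had an adjusted p of 0.104 and Mrps28 of 0.0698 in edgeR.

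The large-subunit genes with the largest fold changes were Mrpl54 and Mrpl46. Mrpl54 (mL54, mitochondria-specific) lay at 21.0, 24.4 and 25.2 CPM in RANKL and at 24.7, 29.6 and 34.8 CPM in RANKL+Dex. It rose by 0.30 ± 0.07 on the log2 scale (edgeR adjusted p = 0.00815), and only the lowest RANKL+Dex library, replicate 1, fell among the RANKL values. Mrpl46 (mL46), a protein of the central protuberance at the top of the large subunit, lay at 22.0, 24.2 and 27.4 CPM in RANKL and at 22.9, 30.7 and 34.0 CPM in RANKL+Dex. It rose by 0.30 ± 0.08 (edgeR adjusted p = 0.0204), and its only RANKL+Dex library among the RANKL values was again replicate 1. Its call ended without RANKL+Dex replicate 2 (adjusted p = 0.0501).

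Mrpl46 shares its start region with Mrps11, the gene of the platform protein uS11m, and the values of the pair differed. Mrps11 lay at 13.8, 16.4 and 17.8 CPM in RANKL and at 14.3, 16.4 and 20.0 CPM in RANKL+Dex, and its log2 change of 0.05 ± 0.09 had an interval from −0.14 to 0.24 (edgeR adjusted p = 0.772). The medians were close and the groups overlapped. Mrpl46 and Mrps11 overlap by 413 bases on opposite strands in the deposited coordinates, unlike in the annotation of the promoter windows. With no strand stated in the counting, their shared reads cannot be told apart. The difference between the 2 genes was not tested.

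Mrpl20 encodes bL20m, whose bacterial counterpart binds ribosomal RNA early in assembly. It lay at 41.1, 44.7 and 49.6 CPM in RANKL and at 42.7, 56.1 and 62.3 CPM in RANKL+Dex, and rose by 0.27 ± 0.07 on the log2 scale (edgeR adjusted p = 0.0169). Again 1 RANKL+Dex library, replicate 1, lay within the RANKL range and the other 5 above it. Mrpl35 (ENSMUSG00000052962, chromosome 6, 71789981 to 71803953, minus strand, GRCm39) encodes bL35m, another protein shared with bacteria. It lay at 23.5, 25.2 and 26.9 CPM in RANKL and at 27.6, 29.1 and 33.1 CPM in RANKL+Dex, did not overlap, and rose by 0.23 ± 0.06 (edgeR adjusted p = 0.0113).

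Mrpl28 (bL28m) lay at 43.2, 45.9 and 49.2 CPM in RANKL and at 44.3, 53.9 and 61.0 CPM in RANKL+Dex, and rose by 0.20 ± 0.06 on the log2 scale (edgeR adjusted p = 0.0433). Mrpl48 (mL48), of the central protuberance, lay at 35.8, 37.4 and 40.6 CPM in RANKL and at 39.8, 42.6 and 45.3 CPM in RANKL+Dex, and rose by 0.17 ± 0.05 (edgeR adjusted p = 0.0192). Mrpl45 (mL45), which lies at the exit tunnel and helps to hold the ribosome at the inner membrane, lay at 36.1, 39.7 and 41.2 CPM in RANKL and at 39.6, 43.4 and 45.4 CPM in RANKL+Dex, and rose by 0.15 ± 0.05 (edgeR adjusted p = 0.0473). The groups overlapped for all 3, although Mrpl48 and Mrpl45 were higher in 6 of 6 batches. Mrpl28 was called in 10 and Mrpl45 in 7 of the 21 alternative settings, whereas Mrpl20, Mrpl35, Mrpl48 and Mrpl54 were called in all 21 and Mrpl46 in 20.

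**Figure D3:**
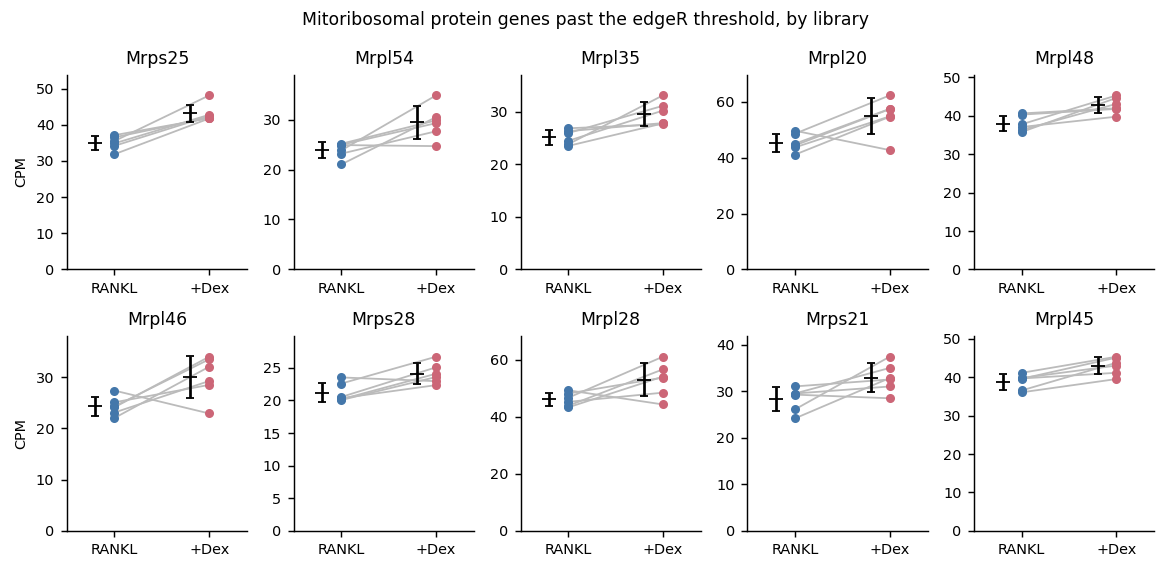
CPM in each library (y axis from 0) of the 10 genes past the edgeR threshold, ordered by p; grey lines join libraries of 1 batch and bars show mean ± SD of 6 libraries. Only Mrps25 and Mrpl35 have groups that do not overlap.

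Some of these loci share bases with other genes. Of the 77 genes 37 overlap another gene in the deposited coordinates, and for 20 the neighbours held more than 0.1 of the gene's own counts. Among the genes that rose these were Mrps25 with Nr2c2 (4770 bases, opposite strand, Nr2c2 log2 fold change −0.06), Mrpl48 with Rab6a (892 bases, 0.03) and Mrpl46 with Mrps11. Reads from overlapping genes could not be told apart.

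A panel of 8 genes was described whatever their values. Mrps12 encodes uS12m of the decoding centre and lay at 20.1, 21.6 and 23.0 CPM in RANKL and at 20.0, 24.8 and 25.9 CPM in RANKL+Dex, where replicate 1 was the low one. The difference of 0.17 ± 0.07 on the log2 scale had an edgeR adjusted p of 0.0924, 0.0496 with the block and 0.0106 without RANKL+Dex replicate 1. Mrpl12, a stalk protein that recruits translation factors and the most abundant of the 77 by counts, lay at 113, 120.2 and 128 CPM in RANKL and at 115, 134 and 150.3 CPM in RANKL+Dex. The difference was 0.14 ± 0.05 on the log2 scale (edgeR adjusted p = 0.0775, 0.0434 with the block), and it was higher in 4 of 6 batches. Mrpl58 (mL62), a peptidyl-tRNA hydrolase built into the large subunit, lay at 24.0, 25.6 and 27.2 CPM in RANKL and at 26.1, 28.1 and 33.8 CPM in RANKL+Dex, a difference of 0.16 ± 0.06 on the log2 scale (edgeR adjusted p = 0.0927, 0.0374 with the block). It was higher in 6 of 6 batches, although the groups overlapped.

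The 3 relatives of bacterial S18 differed in level and in value. Mrps18c (bS18m) averaged 12.6 ± 1.01 CPM without and 14.4 ± 2.32 CPM with dexamethasone (SD, n = 6), a difference of 0.19 ± 0.10 on the log2 scale (edgeR adjusted p = 0.216). Mrps18b (mS40) averaged 26.2 ± 1.97 and 26.1 ± 1.49 CPM (−0.00 ± 0.06, edgeR adjusted p = 0.983, interval −0.13 to 0.12). Mrps18a (mL66) averaged 61.5 ± 1.76 and 63.3 ± 2.40 CPM (0.04 ± 0.04, edgeR adjusted p = 0.492, interval −0.04 to 0.12). None of the 3 passed, and the differences between them were not tested. Mrps30 (mL65) differed by 0.09 ± 0.07 on the log2 scale and Mrps36 by 0.13 ± 0.07, with edgeR adjusted p of 0.46 and 0.198.

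The other genes added with the block, chosen here because they are the count of that fit, were Mrps16, Mrpl14, Mrpl27, Mrpl41, Mrpl52 and Mrpl57. The 7 genes below 0 were Mrps2, Mrps6, Mrps17, Mrps18b, Mrpl9, Mrpl10 and Mrpl49. Their fold changes were small, and the lowest adjusted p among them was 0.342 by edgeR (Mrps2, −0.06 ± 0.04 on the log2 scale).

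Levels of the proteins' messenger RNAs were far from equal, although a ribosome holds most of its proteins once. Per kilobase of the median coding transcript length, the RANKL level ran from 5.07 to 131 CPM per kb over the 77 genes (median 29.1), a 25.8-fold range. The medians were 26.1 for small-subunit and 35.0 for large-subunit symbols. The highest large-subunit levels were those of Mrpl52 (131 CPM per kb) and Mrpl4 (98.5), and the lowest those of Mrpl32 (5.07) and Mrpl47 (5.66). The highest among small-subunit symbols were Mrps23 (91.5) and Mrps18a (81.7), and the lowest Mrps30 (5.58) and Mrps25 (5.76). The 4 genes at the low end have median annotated transcripts of 3013 to 6073 bases, and the transcript form used in these cells was not known, so these levels depend on the annotation. Of these 8 only Mrps25 passed the test.

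Precision limited what could be called. The SE of a fold change ran from 0.04 to 0.11 on the log2 scale over the 77 genes, with a median of 0.06, beside a median fold change of 0.10. Counting error at a gene's median count was 1.98 to 6.01% of its value (median 3.81%), and the common biological coefficient of variation was 8.67%. Of the 77 genes 12 had an adjusted p between 0.05 and 0.10, and 4 of the 10 called had one between 0.04 and 0.05.

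Of 5 mitoribosomal protein genes with other symbols, 1 passed the test. Chchd1 (mS37), a small-subunit protein, rose by 0.26 ± 0.07 on the log2 scale, from a mean of 18.2 ± 1.81 to 21.9 ± 1.48 CPM (SD, n = 6, edgeR adjusted p = 0.0176), with groups that did not overlap. Dap3 (mS29, a GTP-binding protein) had a log2 fold change of 0.11 ± 0.04, Aurkaip1 (mS38) of 0.08 ± 0.05, Ptcd3 (mS39) of −0.07 ± 0.05 and the large-subunit gene Gadd45gip1 of 0.08 ± 0.07. None of these 4 passed (edgeR adjusted p from 0.112 to 0.496). The value of Ptcd3 was below the lowest of the 77 genes, and it was higher in 1 of 6 batches.

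Factors that build and serve the mitoribosome had medians closer to 0. Over all tested genes 7.98% were called higher and 7.55% lower. Of 29 assembly factors 3 rose (10.3%, near that share) and 0 fell, with a median log2 fold change of 0.02. The 3 were the RNA helicase gene Ddx28 (0.27 ± 0.06), Noa1 (0.20 ± 0.05), a GTPase gene, and Mpv17l2 (0.19 ± 0.04). The ribosomal RNA methyltransferase gene Mrm1 averaged 18.7 ± 1.41 CPM without and 16.5 ± 0.880 CPM with dexamethasone (n = 6), a difference of −0.18 ± 0.06 (edgeR adjusted p = 0.0647, 0.0490 with the block). Of 16 tested translation factors 2 rose (12.5%) and 0 fell (median 0.05). They were the elongation factor gene Tsfm (0.16 ± 0.05) and the initiation factor gene Mtif3 (0.21 ± 0.07). Of 17 mitochondrial tRNA synthetases 0 rose and 0 fell (median 0.04), with 1 higher and 1 lower at an unadjusted p under 0.05 and 0 called by DESeq2.

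Among 16 genes for copying and reading mitochondrial DNA 0 rose and 0 fell by edgeR (median log2 fold change 0.01, with 1 higher and 2 lower at an unadjusted p under 0.05 and 0 called by DESeq2). The DNA polymerase gene Polg averaged 63.4 ± 1.91 CPM without and 58.2 ± 3.61 CPM with dexamethasone (n = 6, difference −0.12 ± 0.04, edgeR adjusted p = 0.061, 0.0346 with the block). Among 12 tested regulators of mitochondrial biogenesis 0 rose and 3 fell (25%, median −0.00), where 7.55% of all tested genes were called lower. Those were Myc (−0.34 ± 0.06), a transcription factor that raises ribosome genes in many cells, Hcfc1 (−0.19 ± 0.05) and Pprc1 (−0.20 ± 0.06), a coactivator related to PGC-1α. Gabpb1, a subunit of the GABP factor, averaged 15.4 ± 1.11 and 17.4 ± 0.769 CPM (difference 0.18 ± 0.06, edgeR adjusted p = 0.0656).

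The messenger RNAs that mitoribosomes translate were also counted. The 13 mitochondrially encoded messenger RNAs took 2.14 to 2.39% of counts in RANKL (median 2.21%) and 2.17 to 2.51% in RANKL+Dex (median 2.29%). The groups overlapped, and the mean shares of 2.23 ± 0.0901% and 2.32 ± 0.145% did not differ beyond the replicate spread (exact two-sided permutation p = 0.193, 924 arrangements, smallest possible 0.00216, n = 6). Paired by batch, 4 of 6 were higher (exact sign-flip permutation p = 0.219, smallest possible 0.0312). None of the 13 passed in edgeR or DESeq2, with 3 higher and 0 lower at an unadjusted edgeR p under 0.05. With the block mt-Nd1 and mt-Nd2 passed (edgeR adjusted p = 0.0227 and 0.026).

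Other nuclear genes for mitochondrial and ribosomal proteins were read against the 7.98% of all tested genes called higher. Import genes had a median log2 fold change of 0.12 with 2 of 22 called higher (9.09%, near that share, and 9 with the block), among them the import receptor gene Tomm70a (0.15 ± 0.04) and Grpel1 (0.18 ± 0.05). Mitochondrial chaperones and proteases had 5 of 11 higher (median 0.13), such as the protease subunit gene Clpx (0.29 ± 0.06) and the chaperonin gene Hspe1 (0.29 ± 0.06). Nuclear subunits of respiratory complex I had 15 of 37 higher (median 0.14, 8 with length and GC trends removed), such as Ndufs8 (0.25 ± 0.05). Cytosolic ribosomal proteins had 37 of 80 higher (median 0.15), 58 with the block and 23 with the trends removed. No gene of these 4 lists fell by edgeR, and in this fit their medians were higher than that of the mitoribosomal proteins.

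**Figure D4:**
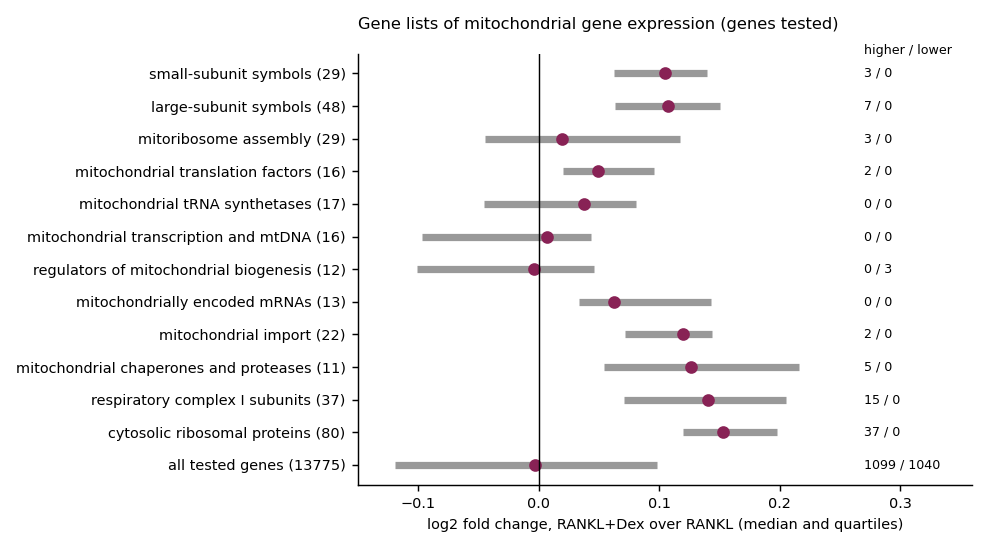
Median (points) and quartiles (bars) of the log2 fold change, RANKL+Dex over RANKL, in lists of genes for mitochondrial gene expression and in comparison lists; figures in brackets are genes tested, and the column at the right gives genes called higher and lower by edgeR. Both mitoribosomal subunits lie near 0.10, below cytosolic ribosomal proteins and complex I subunits and above regulators and assembly factors.

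Short transcripts are common to several of these lists. The median coding transcript length was 1056 bases for the 77 genes, 704 for cytosolic ribosomal proteins and 667 for complex I subunits, against 2004 over all tested genes. After trends of fold change with length and GC content were removed, the medians were 0.0923, 0.121 and 0.102, and import genes lay below the 77 genes at 0.0886. In that fit 7 of the 77 genes rose and 0 fell, where 8.23% of all tested genes were called higher and 6.9% lower. Of the 7, 6 were among the 10, and 69 of 77 lay above 0. The genes whose calls ended were Mrps21, Mrps28, Mrpl28 and Mrpl45, with log2 fold changes of 0.16, 0.16, 0.20 and 0.12 in that fit, and Mrpl38 was added (0.14, edgeR adjusted p = 0.021).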

How the data were processed

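The authors deposited raw counts, whole numbers for each gene and library, from poly(A) RNA sequenced as read pairs of 150 bases. GRCm39, HISAT2 2.1.0 and StringTie 1.3.3b, besides DESeq 1.28.0 and FastQC 0.11.5, are named per the submitters' processing notes, with no role or order. The sources used here do not name the counting program, its strand setting or its handling of reads with several matches. Reads of overlapping or near-identical genes may therefore be split wrongly. Library totals of 16820193 to 28523595 counts set the precision, and intervals cover the spread between libraries. No library repeated another within sampling noise (chi-square per gene 3.24 to 19.9).

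Genes with few counts were removed (filterByExpr, minimum count 10, minimum total 15), and the groups were compared over all 13775 remaining genes with edgeR 4.0.16 in R 4.3.3. The fit used TMM factors, the quasi-likelihood test, treatment as the only term and Benjamini-Hochberg adjustment over all tested genes, with a threshold of 0.05. Within-batch log2 ratios used a pseudocount of 0.5 CPM. Lengths and GC contents are medians over coding transcripts of GENCODE M21. The script was tested on simulated data. The share of counts in mitochondrial messenger RNAs was compared with exact permutation tests.

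The design text gives 6 biological replicates per group, whereas the extraction protocol mentions triplicates, so n = 6 rests on the design text and on the batch number in each label. Separate mice are not stated, and a p-value then reflects only how these cultures varied. The shared batch number pairs libraries by label. Same-numbered deviations from the group means had correlations of 0.0502 to 0.421 (mean 0.189), against −0.0377 for different numbers. The value with batch as a block stands beside a result where a call changed or a count of calls moved by over 1.5 times.

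The members and gene lists were chosen with earlier results of these data known. Genes named were those past the threshold, up to 12 in each direction, the 2 highest and 2 lowest of each subunit by level per length, a panel of 8, the 5 mitoribosomal genes with other symbols and up to 4 genes from each list. Others are marked by why they are named. Alternatives were other scalings, filters, DESeq2 1.42.0, the block, removal of length and GC trends and leaving out each library. With 1 library per group in a batch, batches gave ratios and no test.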

Additional observations from a re-analysis of the deposited data

Results flagged for a closer look

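In 10 of 136 groups of 6 libraries, 1 library stood apart from the others of its group by more than Dixon's 95% critical value of 0.625. Chance alone flags about 1 in 20 groups. RANKL+Dex replicate 5, the library with the highest summed level of the 77 genes, was high for Mrps25 (48.1 CPM, next 42.7), Mrpl58 (33.8, next 28.3), Dap3 (54.9, next 50.7) and Tsfm (31.4, next 28.7). RANKL+Dex replicate 1 was low for Mrps12 (20.0 CPM, next 24.1) and high for Polg (64.9, next 58.4). In RANKL, replicate 5 was high for Gadd45gip1 (13.1 CPM, next 11.3), replicate 1 low for Tsfm (24.0, next 25.4) and replicate 4 high for mt-Nd4l (23.1, next 9.94). Lars2, the mitochondrial leucyl-tRNA synthetase gene, was at 494 CPM in RANKL+Dex replicate 2 and at 87.4 CPM in the next of its group, so its log2 fold change of 1.01 ± 0.41 (edgeR adjusted p = 0.108) rests on 1 library.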

How the results depend on the processing

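The 10 genes called higher became 6 with library totals as the only scaling, 19 with the replicate block (paired by batch) and 18 with the replicate block and length and GC trends removed, a fit in which 3239 genes were called over the whole table against 2139. Leaving out 1 library gave 6 to 19: 6 without RANKL replicate 4 or RANKL+Dex replicate 2, 4 or 5, and 19 without RANKL+Dex replicate 1. The causes were not tested. Other settings gave 7 to 12, and 0 genes were called lower in every setting run. The median fold change stayed above 0 for all genes and both subunits in every setting. Mrps18b, at −0.0033 on the log2 scale, turned to 0.0013 with DESeq2 and lay between −0.0352 and 0.0204 when 1 library was left out. Of 483 values of 23 named genes under alternatives, 416 kept direction and side of the threshold, 50 lost the call, 10 gained it and 7 turned sign, all of Mrps18b. The replicate block left the mitochondrial messenger RNA share difference at 0.0957 percentage points and changed no other call of a named gene than those given. Differences of the size of the median shift (0.10) are under 2 SE of a typical gene, so a gene that did not pass is not shown to be unmoved.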
